A study of Homo sapiens with 9 samples.

Results

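Aldehyde dehydrogenases (ALDHs) oxidise reactive aldehydes to carboxylic acids. Transcripts of 9 of these genes were followed across parental and reprogrammed lung cancer cells: ALDH1A1, ALDH1A2, ALDH1A3, ALDH1B1, ALDH2, ALDH3A1, ALDH3A2, ALDH7A1 and ALDH9A1. Every array probe whose accession is a RefSeq transcript of 1 of these genes was taken, which gave 14 of the 50599 probes measured. Of the 14 probes, 13 were well above background on all 9 arrays. They cover 8 of the 9 genes, and the exception was the ALDH1A2 probe, which was above background on no array. Each of these probes had 1 spot per array.

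The samples fall into 3 groups of 3 arrays, all from A549, an epithelial line from a human lung adenocarcinoma. Parental A549 cells were at passages P98, P98 and P99, and no virus is named for them. OSK-A549-Colony cells (P106, P107 and P106) and OSK-A549-SN cells (P106, P107 and P106) were transduced by retrovirus with OCT3/4, SOX2 and KLF4, called OSK. Colony cells are from the dome-shaped colonies that the transduced cells formed, and SN cells are the spindle-shaped cells that grew around those colonies and came off the dish earlier in trypsin. From its functional assays the study considered the Colony cells stem-like, and it describes the SN cells as having arisen from Colony cells. Viral infection, colony picking, the OSK genes and the higher passage number came together in both transduced groups, so their effects against parental A549 cannot be told apart. By the study's methods the RNA came from separate retroviral transduction experiments, and the SN cells were taken from the dishes in which the colonies grew, but no source used here says whether a replicate number marks the same experiment in each group. In these bulk samples a lower level in every cell and a smaller share of cells with a high level cannot be told apart.

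Values below are relative signals: the background-subtracted intensity of a probe divided by the 75th percentile of all probes on the same array, so that 1 is the level of that percentile. The intensity at the 75th percentile was 217.5 to 270.6 across the arrays, no spot was saturated, and the number of arrays limits the precision. Over 23758 probes, arrays of the same group correlated at r of 0.983 to 0.993 in parental A549, 0.994 to 0.997 in Colony and 0.987 to 0.996 in SN. All 6 epithelial marker genes (EPCAM, CDH1, KRT7, KRT8, KRT18 and KRT19) were above background on all 9 arrays. Of the fibroblast markers, COL3A1, PDGFRB and DCN were on no array, and the summed signal of all 4 fibroblast genes was 0.0655 to 0.104 in parental, 0.0904 to 0.123 in Colony and 0.0958 to 0.104 in SN. The 4 endothelial markers summed to 0.259 to 0.333, 0.283 to 0.309 and 0.330 to 0.531 in the same order, with PECAM1 on no array. CDH5 (A_33_P3728167) and VWF (A_21_P0012280) were above background on all 9 arrays, and both were highest on SN replicate 3, at 0.247 and 0.172 against 0.0821 to 0.144 and 0.0607 to 0.116 on the rest. That array was alone on its slide. Among leukocyte markers, CD14 read 2.41, 3.43 and 7.56 on parental replicates 1 to 3, 2.03, 2.63 and 2.52 in Colony and 3.20, 4.14 and 3.32 in SN. The other leukocyte markers above background on any array were not highest on parental replicate 3, and 1 of them was highest on SN replicate 3. Their part in the results below was not tested. Among the transduced genes, the KLF4 probe read 0.198, 0.180 and 0.206 in parental A549, 2.83, 1.25 and 0.656 in Colony and 2.11, 1.47 and 0.399 in SN. KLF4 passed the test in Colony against parental A549 (log2 fold change 2.77, adjusted p = 0.0373, and 0.0617 to 0.134 when any of the 6 arrays was left out) and did not in SN (2.47, adjusted p = 0.100). The Colony call was also lost with no detection filter (adjusted p = 0.0631), and normexp background correction lowered the log2 fold changes to 1.85 and 1.57. Without SN replicate 3 the SN difference was 3.18 and passed (adjusted p = 0.0238), as it did with the stricter detection filter (adjusted p = 0.0380). Of the 2 POU5F1 (OCT3/4) probes, A_24_P144601 read 0.298, 0.183 and 0.226 in parental A549, 2.79, 1.57 and 0.280 in Colony and 3.31, 1.75 and 0.255 in SN. Replicate 3 of both transduced groups was thus at the parental level on it while replicates 1 and 2 were above, and its log2 fold changes of 2.21 and 2.30 did not pass (adjusted p = 0.155 and 0.228). The other POU5F1 probe and the SOX2 probe did not pass either. Probe sequences were not given in the sources used here, so whether these probes read the viral copies is not known.

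As background, the ALDH1A enzymes work in the cytosol and turn retinal into retinoic acid, the ligand of the RAR nuclear receptors. ALDH2 and ALDH1B1 are mitochondrial and clear acetaldehyde and other small aldehydes, while ALDH3A1 and ALDH3A2 act on longer-chain and lipid-derived aldehydes. ALDH7A1 takes part in lysine breakdown and ALDH9A1 oxidises aminoaldehydes. High ALDH activity is used to sort stem-like cells from lung cancers, and A549 is known as a line rich in ALDH1A1 and ALDH3A1.

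In the data, ALDH1A3 was the single member to pass the test in any of the 3 comparisons, with a mean that was higher by 1.10 on the log2 scale in Colony cells than in parental A549, a call that was lost when any 1 of the 6 arrays was left out. ALDH1A1, ALDH2 and ALDH3A2 were lowest in SN cells, without overlap between SN and either other group on any of their probes. Over all probes, 32.1% were without overlap between SN and parental A549, with 15.2% lower in SN. Between Colony and SN it was 30.8%, with 13.5% higher in Colony. The share of all probes with SN below both other groups was not counted. Differences in these 3 genes did not pass the test in single comparisons, where their means differed by less than 2-fold. The adjusted p of ALDH1A1 and ALDH2, above 0.05 here, fell below it under some settings. ALDH1A1 and ALDH2 passed an F test across the 3 groups, as did 11.4% of all probes, and no member passed it when any single array other than parental replicate 3 was left out, with slide or replicate number as a block, or with no detection filter. The strongest ALDH7A1 probe was below every parental sample in both transduced groups, at 0.798 times the parental level in Colony and 0.761 in SN, and did not pass either. ALDH1B1, ALDH3A1, ALDH9A1 and the other two ALDH7A1 probes overlapped in all 3 comparisons.

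**Figure D1:**
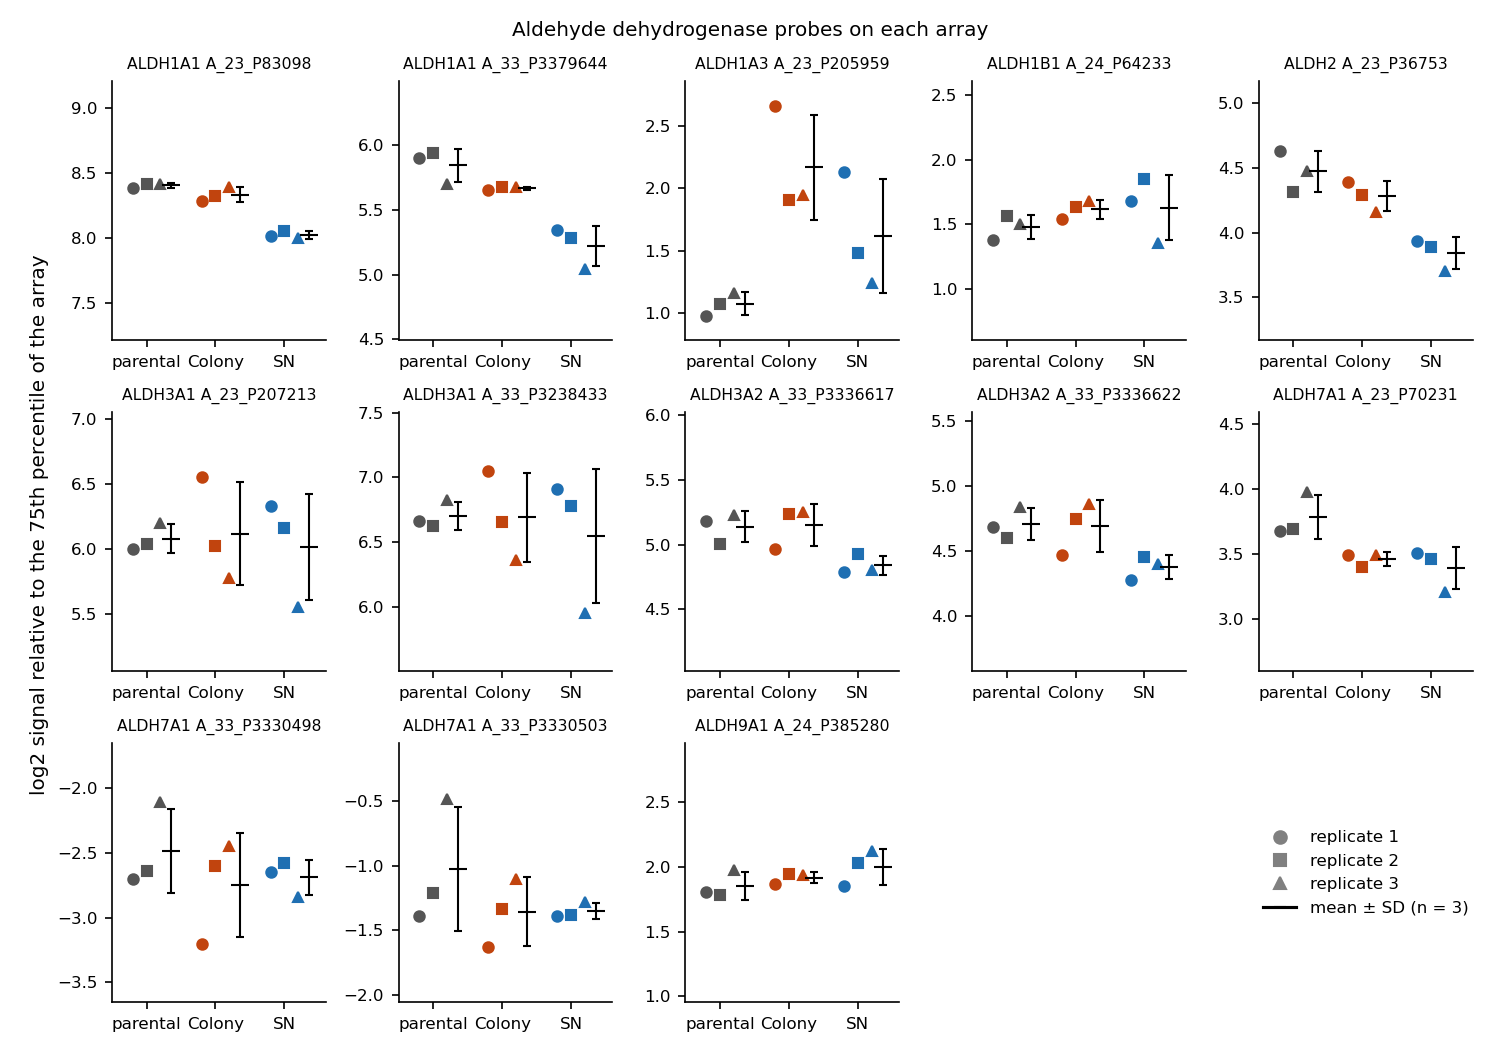
Each panel plots 1 probe of a member gene that was above background on all 9 arrays, as log2 of the signal relative to the 75th percentile of its array, with the 3 groups side by side (circle, replicate 1; square, replicate 2; triangle, replicate 3; bar, mean ± SD, n = 3). The ALDH1A3 points of Colony lie above all parental points, the ALDH1A1 and ALDH2 points of SN lie below those of both other groups, and the replicates of ALDH3A1 spread further in Colony and SN than in parental A549; panels have their own ranges, so heights of different probes cannot be compared.

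ALDH1A3, a retinoic acid-forming enzyme, had 1 probe (A_23_P205959). It read 1.97, 2.10 and 2.24 in parental A549, 6.31, 3.75 and 3.84 in Colony and 4.38, 2.79 and 2.36 in SN. Every transduced sample was therefore above every parental sample. The Colony and SN ranges overlapped, although each Colony sample was above the SN sample with the same replicate number. In Colony against parental A549 the log2 fold change was 1.10 (SE 0.227, 95% confidence interval 0.54 to 1.66, adjusted p = 0.0446 by limma with Benjamini-Hochberg adjustment), a 2.14-fold higher signal. A probe was called when its adjusted p was below 0.05 and its means differed more than 2-fold. This was 1 of 13 member probes, beside 3.7% of the 30864 probes tested, or 1.71% higher and 1.99% lower. The call lay close to both thresholds. It was lost when any of the 6 arrays was left out, with a log2 fold change between 0.85 (without Colony replicate 1) and 1.23 (without Colony replicate 2) and an adjusted p of 0.0627 to 0.128. The count over all probes also moved with single arrays, from 1143 to 141 without Colony replicate 1, 0 without Colony replicate 2, 85 without Colony replicate 3 and 1 without parental replicate 2. In SN against parental A549 the ALDH1A3 log2 fold change was 0.55 (interval -0.063 to 1.16, adjusted p = 0.274). Between Colony and SN it was 0.55 (interval -0.23 to 1.33, adjusted p = 0.379).

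**Figure D2:**
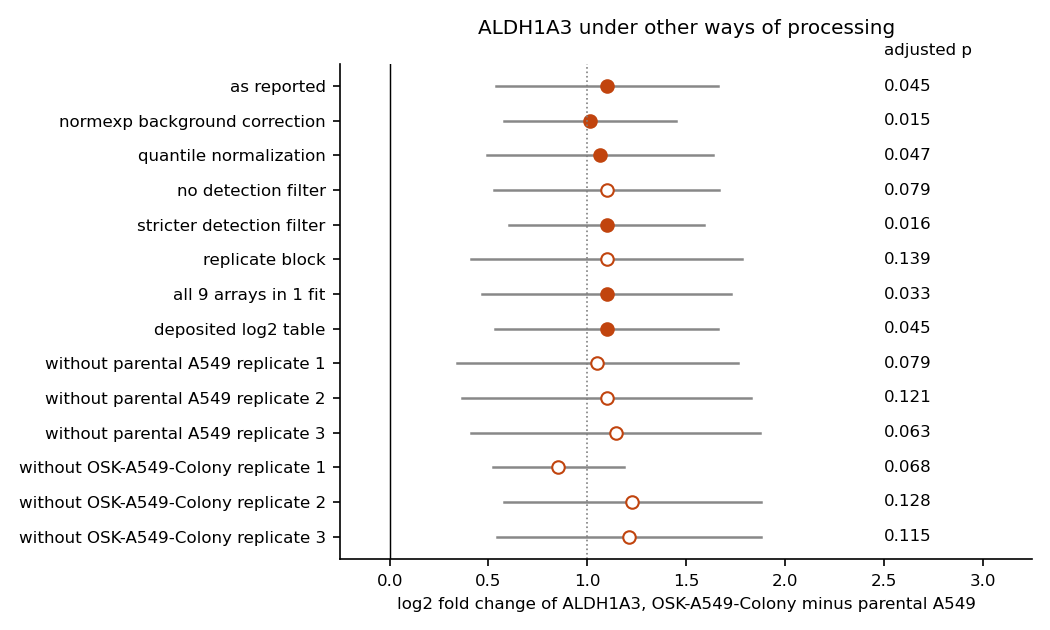
The ALDH1A3 log2 fold change of OSK-A549-Colony against parental A549 is plotted with its 95% confidence interval under the reported processing and 13 other settings, with the adjusted p at the right; filled points passed both thresholds and the dotted line marks a 2-fold difference. The log2 fold change was 0.85 or more under these settings, while the adjusted p crossed 0.05 in 8 of them, including every setting that left out an array.

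The stretch around the ALDH1A3 start site is shown because this is the member that passed the test. It is the RefSeq promoter of assembly GRCh38.p14, chr15:100879581-100879880 on the plus strand, with 250 bases before the start and 50 from it.
ALDH1A3: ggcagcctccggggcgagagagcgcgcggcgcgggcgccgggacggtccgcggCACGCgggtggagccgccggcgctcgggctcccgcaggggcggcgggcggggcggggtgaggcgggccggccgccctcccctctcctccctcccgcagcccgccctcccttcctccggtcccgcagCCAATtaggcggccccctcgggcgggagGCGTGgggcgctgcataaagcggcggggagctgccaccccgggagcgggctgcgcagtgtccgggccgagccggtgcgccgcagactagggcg
Capitals mark a CCAAT box beginning 71 bases before the start, and matches of the aryl hydrocarbon response core GCGTG at 43 bases before it and on the other strand, as CACGC, at 197. The KLF letters GGGTG were found at 192 and 143 bases before the start and, as CACCC, at 9. GC boxes (GGGCGG) began at 160, 153, 148 and 52 bases before the start and, as CCGCCC, at 127 and 98. The pair at 153 and 148 shares a base, and so do the GC box at 148 and the GGGTG at 143. The GCGTG and GGGTG matches share none with each other. Of 35116 promoters of the same length, 34.6% held CCAAT, 36.5% GCGTG, 59.9% GGGTG and 45% GGGCGG on either strand, so these letters are common. A match of letters is not evidence of a bound site.

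ALDH1A1, a cytosolic retinal dehydrogenase, had 2 probes, and the group means of both had the same order: parental, Colony, SN. Probe A_23_P83098 read 334.6, 341.7 and 340.7 in parental A549, 311.3, 321.1 and 336.2 in Colony and 258.5, 265.8 and 255.8 in SN. Probe A_33_P3379644 read 59.7, 61.2 and 51.9 in parental A549, 50.2, 51.1 and 51.0 in Colony and 40.6, 38.8 and 33.0 in SN. All SN samples were below all samples of both other groups on both probes, and Colony and parental A549 overlapped on the first probe but not on the second. Across the 9 arrays the probes followed each other with r of 0.930. In SN against parental A549 the log2 fold changes were -0.38 (SE 0.114, interval -0.66 to -0.10, adjusted p = 0.136) and -0.62 (SE 0.148, interval -0.98 to -0.26, adjusted p = 0.0943), which is 0.767 and 0.650 times the parental level. Colony against SN gave 0.31 (interval 0.12 to 0.51, adjusted p = 0.146) and 0.44 (interval 0.18 to 0.70, adjusted p = 0.138). Colony against parental A549 gave -0.071 (interval -0.30 to 0.15) and -0.18 (interval -0.44 to 0.086), with adjusted p of 0.620 and 0.317. On both probes the Colony mean lay between the SN and the parental mean. For SN against parental A549 the adjusted p was 0.0346 and 0.0213 with all 9 arrays in 1 fit, and on the second probe 0.0274 with normexp and 0.0479 with a stricter detection filter. Colony against SN on the second probe had 0.0392 with normexp. The means stayed within 2-fold under each of these settings, so none was a call.

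Both probes of ALDH1A1 separated SN from the other groups, as did those of ALDH3A2, whose promoters are not printed. The start of ALDH1A1 is shown here. It is the RefSeq promoter of GRCh38.p14, chr9:72953004-72953303 on the minus strand, printed in the direction of the gene.
ALDH1A1: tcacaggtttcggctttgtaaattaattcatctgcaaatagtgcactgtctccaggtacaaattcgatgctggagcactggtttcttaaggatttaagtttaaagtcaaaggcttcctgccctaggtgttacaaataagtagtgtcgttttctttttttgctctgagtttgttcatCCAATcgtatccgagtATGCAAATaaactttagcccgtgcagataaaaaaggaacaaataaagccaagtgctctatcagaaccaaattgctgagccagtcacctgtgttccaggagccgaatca
Capitals mark a CCAAT box that begins 74 bases before the start and the octamer ATGCAAAT, the POU factor motif, that begins at 58. The octamer stood in 1.77% of all promoters and in 1 of the 9 promoters listed for 7 of the 9 members. The SOX letters ACAAAG matched on the other strand at 237 bases before the start (16.1% of all promoters). The antioxidant response core TGANNNNGC (41.8% of all promoters) matched on the other strand beginning 5 bases before the start and again inside the transcript. The GC box, the KLF letters and the aryl hydrocarbon response core were not found in this window. Among the 9 member promoters, CCAAT and GGGCGG stood in 6 each, GGGTG in 4, GCGTG in 3, and ACAAAG and TGANNNNGC in 2 each. ALDH2 and ALDH3A1 have no promoter shown here.

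ALDH1A2, the third retinal dehydrogenase, had a relative signal of 0.0101 to 0.0188 and stayed at background on all 9 arrays, so it was not tested.

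ALDH2, the mitochondrial acetaldehyde dehydrogenase, had the same order of group means as ALDH1A1. Its probe (A_23_P36753) read 24.7, 19.8 and 22.3 in parental A549, 21.0, 19.6 and 17.8 in Colony and 15.3, 14.8 and 13.1 in SN. Every SN sample was below every other sample, and Colony and parental A549 overlapped. SN against parental A549 gave a log2 fold change of -0.63 (SE 0.147, interval -0.99 to -0.27, adjusted p = 0.0924), or 0.646 times the parental level. Colony against SN gave 0.44 (interval 0.17 to 0.71, adjusted p = 0.145), and Colony against parental A549 gave -0.19 (interval -0.51 to 0.13, adjusted p = 0.366). The adjusted p of ALDH2 in SN against parental A549 was 0.0277 with normexp, 0.0459 with the stricter filter and 0.0246 with all 9 arrays in 1 fit, with means within 2-fold. ALDH1B1, its mitochondrial relative, read 2.61, 2.95 and 2.84 in parental A549, 2.90, 3.10 and 3.20 in Colony and 3.20, 3.61 and 2.56 in SN. The ALDH1B1 groups overlapped in all 3 comparisons, with log2 fold changes of 0.13, 0.15 and -0.012.

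Both ALDH1A1 probes and the ALDH2 probe passed the F test across the 3 groups (adjusted p = 0.0484, 0.0315 and 0.0379), which makes 3 of 13 member probes beside 11.4% of the 33083 probes tested. ALDH1A3 had an adjusted p of 0.0765 in the same test, and passed it with normexp and with the stricter detection filter, where the count was 4. With quantile normalization an ALDH7A1 probe passed and 1 of the ALDH1A1 probes did not. The F test count fell to 0 when slide was a block, when the detection filter was dropped and when any array other than parental replicate 3 was left out, and it was 2 without that array. Since OSK-A549-SN replicate 3 was the single array on the second slide, the slide block gives the fold changes without it, -0.37 and -0.53 for ALDH1A1 and -0.56 for ALDH2 against parental A549.

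ALDH3A1, a cytosolic enzyme abundant in cornea and induced by xenobiotics, had 2 probes whose group means were nearly level. Probe A_23_P207213 read 63.9, 65.8 and 73.7 in parental A549, 94.0, 64.9 and 54.8 in Colony and 80.5, 71.4 and 46.9 in SN. Probe A_33_P3238433 read 101.3, 98.5 and 113.3 in parental A549, 132.3, 101.0 and 82.4 in Colony and 120.3, 110.0 and 62.0 in SN. Parental samples lay inside the range of both transduced groups on both probes, and in each transduced group replicate 1 was the highest and replicate 3 the lowest. The KLF4 signals given above had the same order of replicates in Colony and in SN, as had both POU5F1 probes and DHRS9. The SOX2 probe did not, with replicate 3 highest in both groups (0.144 in Colony and 0.316 in SN). These orders were looked at after the values were seen, with 3 samples in each group. The share of all probes with this order was not counted, and a link between these genes was not tested. On the first probe the SD on the log2 scale was 0.11 in parental A549, 0.40 in Colony and 0.41 in SN. On the second it was 0.11, 0.34 and 0.52. Log2 fold changes were 0.037 and -0.013 in Colony against parental A549, -0.066 and -0.15 in SN against parental A549, and 0.10 and 0.14 in Colony against SN. Their intervals reached from -0.83 to 0.92 over these comparisons, so differences of nearly 2-fold lie within them. Without SN replicate 3 the SN fold changes turned to 0.16 and 0.14.

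ALDH3A2, the fatty aldehyde dehydrogenase of the endoplasmic reticulum, also had 2 probes. Probe A_33_P3336617 read 36.3, 32.1 and 37.5 in parental A549, 31.3, 37.6 and 38.1 in Colony and 27.7, 30.4 and 28.0 in SN. Probe A_33_P3336622 read 25.7, 24.2 and 28.6, then 22.2, 26.8 and 29.1, then 19.4, 21.9 and 21.1 in the same groups. SN was below both other groups without overlap on both probes, while Colony and parental A549 overlapped. The log2 fold changes of SN against parental A549 were -0.30 (interval -0.62 to 0.020, adjusted p = 0.257) and -0.33 (interval -0.66 to -0.0045, adjusted p = 0.226).

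ALDH7A1, known as antiquitin, had 3 probes. The strongest, A_23_P70231, read 12.8, 13.0 and 15.8 in parental A549, 11.2, 10.5 and 11.2 in Colony and 11.4, 11.0 and 9.22 in SN. Both transduced groups were below every parental sample on this probe and overlapped each other, with log2 fold changes against parental A549 of -0.33 (interval -0.63 to -0.025, adjusted p = 0.144) and -0.39 (interval -0.78 to -0.0086, adjusted p = 0.223). The other two probes overlapped in all 3 comparisons. On them parental replicate 3 was the highest of the 9 arrays, at 0.232 for A_33_P3330498 and 0.715 for A_33_P3330503, against 0.109 to 0.184 and 0.323 to 0.466 on the rest. That array also had the highest CD14 signal, though not that of the other detected leukocyte markers, and whether the pattern is related was not tested. ALDH9A1 read 3.49, 3.43 and 3.94 in parental A549, 3.65, 3.86 and 3.82 in Colony and 3.61, 4.07 and 4.36 in SN. Its groups overlapped in all 3 comparisons, and its log2 fold changes were 0.063, 0.15 and -0.084.

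**Figure D3:**
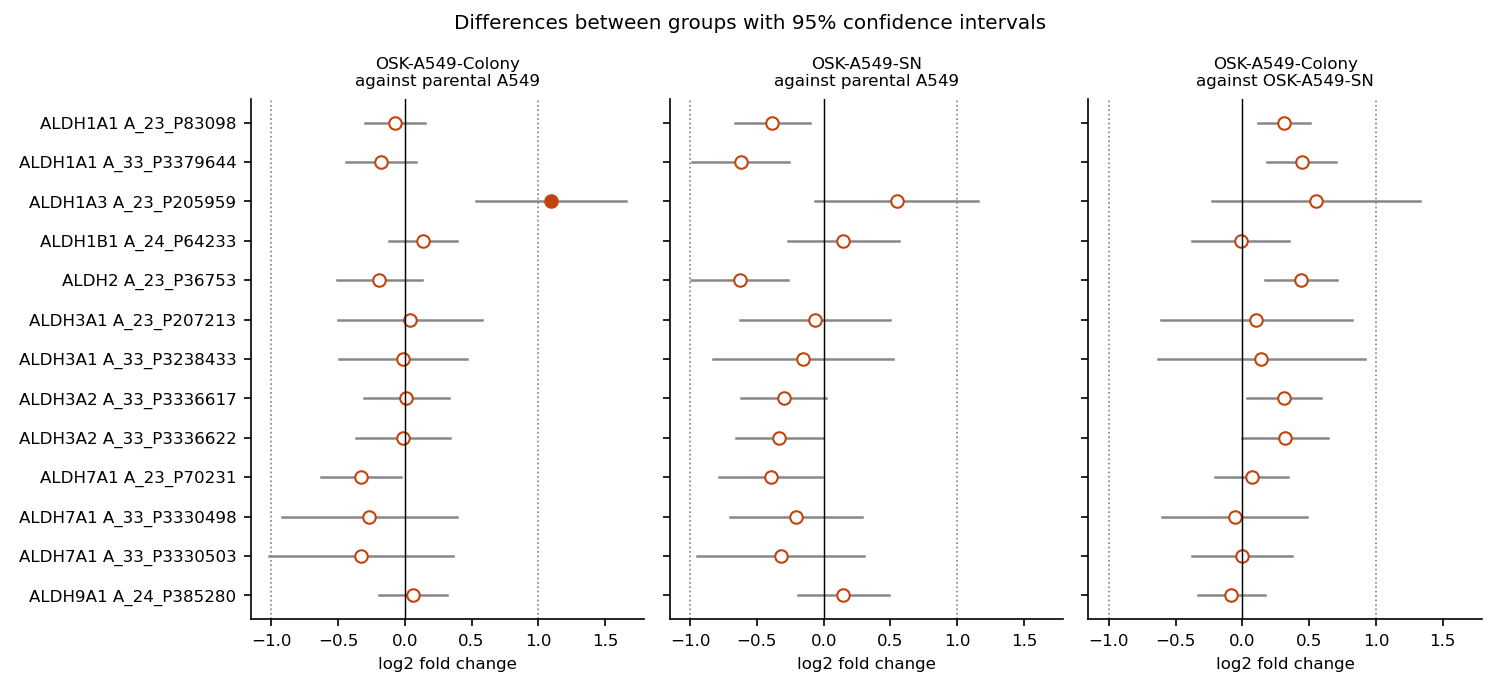
Points give the log2 fold change of each of the 13 member probes in the 3 comparisons and lines the 95% confidence interval from limma; a filled point passed both thresholds and dotted lines mark 2-fold differences. ALDH1A3 in OSK-A549-Colony against parental A549 is the single filled point, and the intervals of ALDH1A1 and ALDH2 lie below 0 for SN against parental A549 and above 0 for Colony against SN.

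Counted over the 13 member probes, Colony against parental A549 had 5 higher and 8 lower means, with a median log2 fold change of -0.015 beside -0.030 over all probes tested. Apart from ALDH1A3 the fold changes stayed within -0.33 and 0.13. At an unadjusted p under 0.05 there were 2 member probes (ALDH1A3 and ALDH7A1), beside 30.1% of all probes. Groups were without overlap on 3 member probes, beside 41.6% of all probes: ALDH1A3 was higher (20.9% of all probes), and ALDH1A1 and ALDH7A1 were lower (20.7%). SN against parental A549 had 3 higher and 10 lower means and a median of -0.30, beside 0.077 over all probes. None of the 13 was called, beside 1.55% of 32218 probes, and at an unadjusted p under 0.05 there were 5 (21.6% of all probes), all lower, beside 10.4% of all probes lower. Without overlap were 7 member probes (32.1% of all probes), of which 6 were lower, beside 15.2% of all probes, and ALDH1A3 was higher, beside 16.8%. The 6 lower were both probes of ALDH1A1 and of ALDH3A2, the ALDH2 probe and 1 ALDH7A1 probe. The 5 with an unadjusted p under 0.05 were the same without 1 ALDH3A2 probe. Colony against SN had 9 higher and 4 lower means and a median of 0.14, beside -0.062 over all probes. None of the 13 was called by limma, beside 0% of 31746 probes, and at an unadjusted p under 0.05 there were 4 (19.5% of all probes), all higher, beside 8.8% of all probes higher. On 5 member probes (30.8% of all probes), all higher, these groups did not overlap, beside 13.5% of all probes higher. The 5 were both probes of ALDH1A1 and of ALDH3A2 and the ALDH2 probe. The 4 with an unadjusted p under 0.05 were the same without 1 ALDH3A2 probe. Over all probes this comparison gave 0 calls here and 32, 139 and 9 with normexp background correction, a stricter detection filter and all 9 arrays in 1 fit, none of them a member. The comparisons share arrays, so the SN samples that lay low against parental A549 are the same ones against which Colony was higher. Probes of 1 gene are not separate members, and those of ALDH1A1 and of ALDH3A2 followed each other at r of 0.930 and 0.970.

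The rest of the ALDH family gave no call. Of 10 further genes, 9 had a probe and 8 were tested, and ALDH8A1 was on no array. The largest differences from parental A549 were in ALDH1L1, a folate enzyme, which read 0.211, 0.232 and 0.771 in parental A549, 0.0887, 0.0937 and 0.110 in Colony and 0.0408, 0.0826 and 0.0524 in SN. It was below every parental sample in both transduced groups, with log2 fold changes of -1.79 (adjusted p = 0.0856) and -2.58 (adjusted p = 0.0820), and parental replicate 3 stood apart from its group. The SN replicate 1 value was not well above background. ALDH1L2, its mitochondrial counterpart, read 0.321, 0.308 and 0.221 in parental A549, 0.411, 0.569 and 0.586 in Colony and 0.288, 0.298 and 0.285 in SN. It was higher in Colony than in every sample of the other groups (log2 fold change 0.88, adjusted p = 0.0620 against parental A549, and 0.83, adjusted p = 0.111 against SN). Over all probes, 20.9% were without overlap higher and 20.7% lower in Colony against parental A549. In SN against parental A549 15.2% were lower without overlap, and in Colony against SN 13.5% were higher. In Colony against SN, ALDH1L1 was 0.79 (adjusted p = 0.214) and ALDH4A1, of proline breakdown, was -0.33 on probe A_23_P170337 (adjusted p = 0.271). ALDH16A1 was 0.56 higher in Colony (adjusted p = 0.0758) and 0.52 higher in SN (adjusted p = 0.167) than in parental A549. ALDH6A1, of valine breakdown, was -0.73 in SN against parental A549 (adjusted p = 0.138).

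Around the ALDH1A enzymes, 17 of 19 retinoid pathway genes were tested with 22 probes, and 1 gene rose and 1 fell against parental A549 in each transduced group. That is 2 of 22 probes in each comparison, beside 3.7% of all probes for Colony and 1.55% for SN. LRAT and CYP26C1 were on no array. DHRS9, a dehydrogenase that can make retinal from retinol, read 0.270, 0.313 and 0.282 in parental A549, 2.76, 1.22 and 1.02 in Colony and 1.30, 1.10 and 0.805 in SN. Both transduced groups were above all parental samples, with log2 fold changes of 2.39 (SE 0.384, adjusted p = 0.0304) and 1.87 (SE 0.208, adjusted p = 0.0307). The Colony call was lost without parental replicate 1 or 2 or Colony replicate 2 or 3 (adjusted p of 0.0525 to 0.112), and the SN call without any array other than SN replicate 3 (0.0593 to 0.140). With no detection filter the Colony call was lost too (adjusted p = 0.0509), and normexp lowered the DHRS9 log2 fold changes to 1.69 and 1.23. CRABP1, a cytosolic retinoic acid carrier, read 2.89, 3.32 and 3.30 in parental A549, 1.09, 1.54 and 1.44 in Colony and 0.730, 0.932 and 0.844 in SN on probe A_33_P3326483. It fell by 1.24 on the log2 scale in Colony (adjusted p = 0.0231) and by 1.93 in SN (adjusted p = 0.0206), with no overlap among the 3 groups. Without parental replicate 2 or any Colony array the Colony call was lost (adjusted p of 0.0623 to 0.101), and without parental replicate 1 or 2 or SN replicate 1 or 2 the SN call (0.0518 to 0.132). Its second probe, A_33_P3216869, was lower by the same order of groups, at -0.93 (adjusted p = 0.0221) and -1.23 (adjusted p = 0.0587), and missed 1 threshold each time, although its SN difference passed with the stricter detection filter and with all 9 arrays in 1 fit (adjusted p = 0.0180 and 0.0135). RDH10, which makes retinal, was 0.62 higher in Colony than in SN and RBP4, a retinol carrier, was 0.74 higher, with adjusted p of 0.142 and 0.259. CRABP1 probe A_33_P3326483 was 0.69 higher in Colony than in SN (adjusted p = 0.145). The retinoic acid receptors were tested and none was called. Medians over the list were 0.0024 in Colony and 0.18 in SN against parental A549.

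Of 17 genes of alcohol dehydrogenases and aldo-keto and carbonyl reductases, enzymes that share aldehyde substrates with the ALDHs, 13 were tested and none was called in any comparison. ADH1C had the largest differences that involved SN, reading 0.654, 0.263 and 0.329 in parental A549, 0.471, 0.605 and 0.705 in Colony and 0.0676, 0.0943 and 0.115 in SN. SN lay below every other sample, with a log2 fold change of -2.09 against parental A549 (adjusted p = 0.0628) and 2.70 for Colony against SN (adjusted p = 0.0930). Over all probes, 15.2% were without overlap lower in SN than in parental A549, and 13.5% were higher in Colony than in SN. The class I alcohol dehydrogenase genes are close copies of each other, so which of them the ADH1C probe reads is uncertain. ADH6 was -1.23 in SN against parental A549 and 0.97 in Colony against SN (adjusted p = 0.0665 and 0.108). AKR1C1 (probe A_24_P152968), of a family of close copies too, was -0.57 in Colony and -0.73 in SN against parental A549 (adjusted p = 0.0570 and 0.0705), and CBR3 was 0.67 in Colony (adjusted p = 0.115). ADH1C in Colony overlapped with parental A549 (0.61, adjusted p = 0.323), and so did CBR1 between Colony and SN. Its dim probe A_33_P3284394, not well above background on SN replicate 1, gave 0.33 (adjusted p = 0.279), and probe A_23_P29046, above background on all arrays of both groups, gave 0.0013. ADH4 was above background on 1 parental, 2 Colony and 0 SN arrays, so no difference is given for it.

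The probes whose levels followed a member most closely over the 9 arrays were sought among 18620 named probes that were above background on all arrays. ALDH1A3 was followed by LINC01133 (r = 0.981), FUT4 (0.980) and FA2H (0.977). The first ALDH1A1 probe was followed by PAPSS2 (0.986), CEACAM1 (0.981) and AGMO (0.974), and the second by WHAMMP1 (0.985), NDUFS4 (0.984) and TRIM15 (0.976). The 2 ALDH1A1 probes thus shared none of their nearest 3. For ALDH3A1 the nearest were EGLN1 (0.960), ARPC5 (0.946) and ITM2B (0.941) on its first probe and ZSCAN25 (0.958), TMBIM6 (0.948) and BCKDHB (0.947) on its second. These correlations describe 9 arrays in 3 groups, which share scaling and group differences, and carry no test.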

How the data were processed

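RNA of 9 A549 samples was labelled with Cy3 and hybridised to Agilent single-colour human arrays. The authors deposited, for each spot, the intensity written by Agilent Feature Extraction 11.5.1.1 (version per the file headers), background already subtracted and not scaled between arrays. They also deposited a table of log2 values, which matched the values computed here to within 0.001 after 1 constant per array. Here the log2 intensity minus the 75th percentile of its array was taken, without control spots and outlier-flagged spots, and 50599 probes remained. The group, replicate number and passage came from the labels.

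Each comparison was fitted with limma 3.58.1 (R 4.3.3; lmFit and eBayes, two-sided) on its own 6 arrays, over all probes detected on at least 1 of them, with Benjamini-Hochberg adjustment. Detected means that at least a share of 0.5 of a probe's spots was positive and well above background. The fits were tested on simulated data. Accessions gave names through RefSeq (assembly GRCh38.p14), while the array annotation is of an older build, so no gene coordinates are given beyond the promoters. Every member probe is named, and of each other list the called probes and the 3 largest differences per comparison among probes that all arrays of the higher group detected. The members, lists and tests were chosen with earlier results of these data known. CD14 and the order of replicates in KLF4, POU5F1, SOX2 and DHRS9 were named after their values were seen. Normexp used median spot brightness with an offset of 50. A leukocyte marker, and the sum that holds it, is not reported here.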

Additional observations from a re-analysis of the deposited data

How the results depend on the processing

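The ALDH1A3 call was kept with normexp, quantile normalization, the stricter filter, all 9 arrays in 1 fit and the deposited log2 table, and member calls in Colony against parental A549 went from 1 to 0 with no detection filter (adjusted p = 0.0794), under the replicate block (adjusted p = 0.139) and in every leave-one-out fit (range 0 to 0). In the other two comparisons no setting gave a member call. The F test count of 3 was 4 with normexp and with the stricter filter, which added ALDH1A3, and went to 0 with no detection filter, with slide as a block and under the replicate block, and was 0 to 2 when single arrays were left out. The replicate number was not taken as a pairing: deviations of same-numbered samples correlated at 0.239, 0.0732 and 0.138 between Colony and SN and at -0.196 to 0.150 elsewhere, although each Colony sample correlated best with its own number in SN, and over all probes the block gave 0 calls in each comparison. With the block, the ALDH1A3 difference of Colony against SN had an interval of 0.24 to 0.86 in place of -0.23 to 1.33 (adjusted p = 0.229). Over all probes, SN against parental A549 gave 498 calls and 0 to 190 without single arrays, and Colony against parental A549 gave 333 with normexp.

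No called value changed sign. Near 0, uncalled log2 fold changes turned under single settings; where a cause is not evident from the fit, the cause was not tested. In Colony against parental A549, quantile normalization gave 0.016 for ALDH1A1 (A_23_P83098), 0.023 for ALDH3A1 (A_33_P3238433) and -0.023 for ALDH3A2 (A_33_P3336617). With slide as a block, which leaves out SN replicate 3, ALDH3A1 was 0.16 and 0.14 in SN against parental A549 and -0.13 and -0.16 in Colony against SN, where ALDH7A1 was -0.024 (A_23_P70231) and 0.031 (A_33_P3330503). In Colony against SN, normexp gave 2.1e-05 for ALDH1B1 and 0.0015 and 0.062 for ALDH7A1 (A_33_P3330498, A_33_P3330503), and quantile normalization 0.017 for the latter. Without single arrays the ranges for Colony against parental A549 were -0.18 to 0.21 and -0.19 to 0.15 for ALDH3A1 (A_23_P207213, A_33_P3238433) and -0.055 to 0.10 and -0.10 to 0.096 for ALDH3A2. For SN against parental A549 they were -0.22 to 0.16 and -0.34 to 0.14 for ALDH3A1. For Colony against SN they were -0.13 to 0.27 and -0.16 to 0.32 for ALDH3A1, -0.024 to 0.13, -0.21 to 0.17 and -0.13 to 0.13 for ALDH7A1, and -0.15 to 0.099 for ALDH1B1. With 3 arrays a group and 1 spot a probe, the interval of a difference is the limit on what could be seen.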
